A study of Homo sapiens with 24 samples.

Results

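The 7 genes described here belong to the Wnt signalling pathway and were chosen by name from 20042 genes with a probe on the array, before any filter on signal: the ligand WNT5A, the secreted inhibitors DKK1 and SFRP1, the intracellular inhibitors NKD1, NKD2 and AXIN2, and the transcription factor LEF1, which is neither a ligand nor an inhibitor. The 7 genes were chosen with earlier results of these data known. Their 9 probes, of 47311 on the array, were those the platform annotation gave to 1 of these symbols, and NKD2 and WNT5A had been named as genes reported to be repressed by EZH2. RNA was measured on 24 Illumina bead arrays in 8 groups of 3. The groups were LNCaP, an androgen-dependent human prostate cancer line, and C4-2B, a line derived from it that grows with little androgen. Each line was transfected with an siRNA against EZH2 (siEZH2) or a control siRNA (siControl), and in separate cultures was given EPZ6438 at 1 µM or its solvent DMSO, in every case for 3 days. EPZ6438 is tazemetostat, which inhibits the methyltransferase activity of EZH2. The labels name a single EZH2 siRNA. They number the replicates without saying that each was its own culture, and the p-values therefore cover the variation among these arrays, some or all of which may be technical.

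Wnt proteins are secreted ligands that bind Frizzled receptors. In the canonical branch this stabilises beta-catenin, which enters the nucleus and acts with TCF/LEF factors on target genes, while ligands such as WNT5A mostly act through receptors such as ROR and RYK without beta-catenin. The pathway is held in check by secreted proteins that bind the ligand or its coreceptors and by intracellular proteins that act on Dishevelled or on the complex that degrades beta-catenin. EZH2 carries the enzyme activity of Polycomb repressive complex 2, which methylates histone H3 at silenced genes, many of them with promoters rich in CpG dinucleotides.

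Each array detected from 40.8% to 45.8% of its probes, meaning a detection p-value under 0.05 against negative control beads. A pair of C4-2B arrays was dimmer than the others, EPZ6438 replicate 1 and DMSO replicate 3. The 95th percentile of their raw intensity was 459 and 493, against 670 to 1379 on the other arrays. Of the tested member values that use these arrays, 2 lost their call when the pair was left out (LEF1 and SFRP1 for siEZH2 minus EPZ6438 in C4-2B) and the others stayed on the same side of the threshold. All 10 luminal prostate markers with a probe were detected on all 24 arrays. Of the markers of other cell types, VWF and CD68 were detected on all 24 arrays, ACTA2 on 22, COL1A1 on 21 and CD14 on 20, while LUM, FAP, MYH11, KRT5, KRT14, CDH5 and PTPRC were detected on none. EZH2 itself read 5.73, 5.89 and 5.93 on the LNCaP siEZH2 arrays, against 6.71, 6.73 and 6.73 on the siControl arrays, in log2 intensity, and fell by 0.87 ± 0.16 (standard error, SE; adjusted p = 1.74e-04). In C4-2B it read 6.19, 6.85 and 6.50 with siEZH2, against 7.58, 7.25 and 7.76 with siControl, and fell by 1.02 ± 0.16 (adjusted p = 7.16e-05). With EPZ6438 the EZH2 mRNA differed from DMSO by −0.12 ± 0.16 in LNCaP and by −0.0024 ± 0.16 in C4-2B, without passing the test. EZH2 has 2 further probes, fitted on their own with p-values adjusted over 26278 probes. Both fell with siEZH2 in each line, by between 0.87 and 1.10. With EPZ6438 the dimmer one differed by −0.56 ± 0.22 (adjusted p = 0.114) in C4-2B, while its LNCaP difference was −0.58 ± 0.22 (adjusted p = 0.149). The other differed by 0.02 ± 0.13 in C4-2B, while its LNCaP difference was −0.26 ± 0.13 (adjusted p = 0.305). The probes thus gave different sizes, and none was called.

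Each change is a difference of mean log2 intensity, treated minus control, with the SE of a limma fit to all 24 arrays with 3 arrays in each group. Genes with an adjusted p under 0.05 over the 13789 tested are referred to as called. NKD2, AXIN2 and LEF1 were detected on all 24 arrays, WNT5A on 21, NKD1 on 11 and SFRP1 on 4. The DKK1 probes were detected on 2 and 0 arrays and did not pass the filter of 3 arrays, so 6 of the 7 genes were tested. SFRP1 passed the filter mostly through the group in which it was highest, so its count among the tested genes supports nothing by itself. With siEZH2, 3 of the 6 tested genes were called in LNCaP (NKD2, WNT5A and LEF1) and 3 in C4-2B (NKD2, AXIN2 and WNT5A), all higher. In the LNCaP comparison 26.7% of the 13789 genes were called and 14.2% were called higher, and in the C4-2B comparison these shares were 18.7% and 10.1%. With EPZ6438, 1 of 6 was called in LNCaP (NKD2) and 3 in C4-2B (WNT5A, LEF1 and AXIN2), again all higher, where the shares of all genes were 6.68% called and 4% called higher in LNCaP and 15.2% and 8.14% in C4-2B. Because the members were chosen with earlier results known, the distance of these counts from the shares supports nothing by itself.

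**Figure D1:**
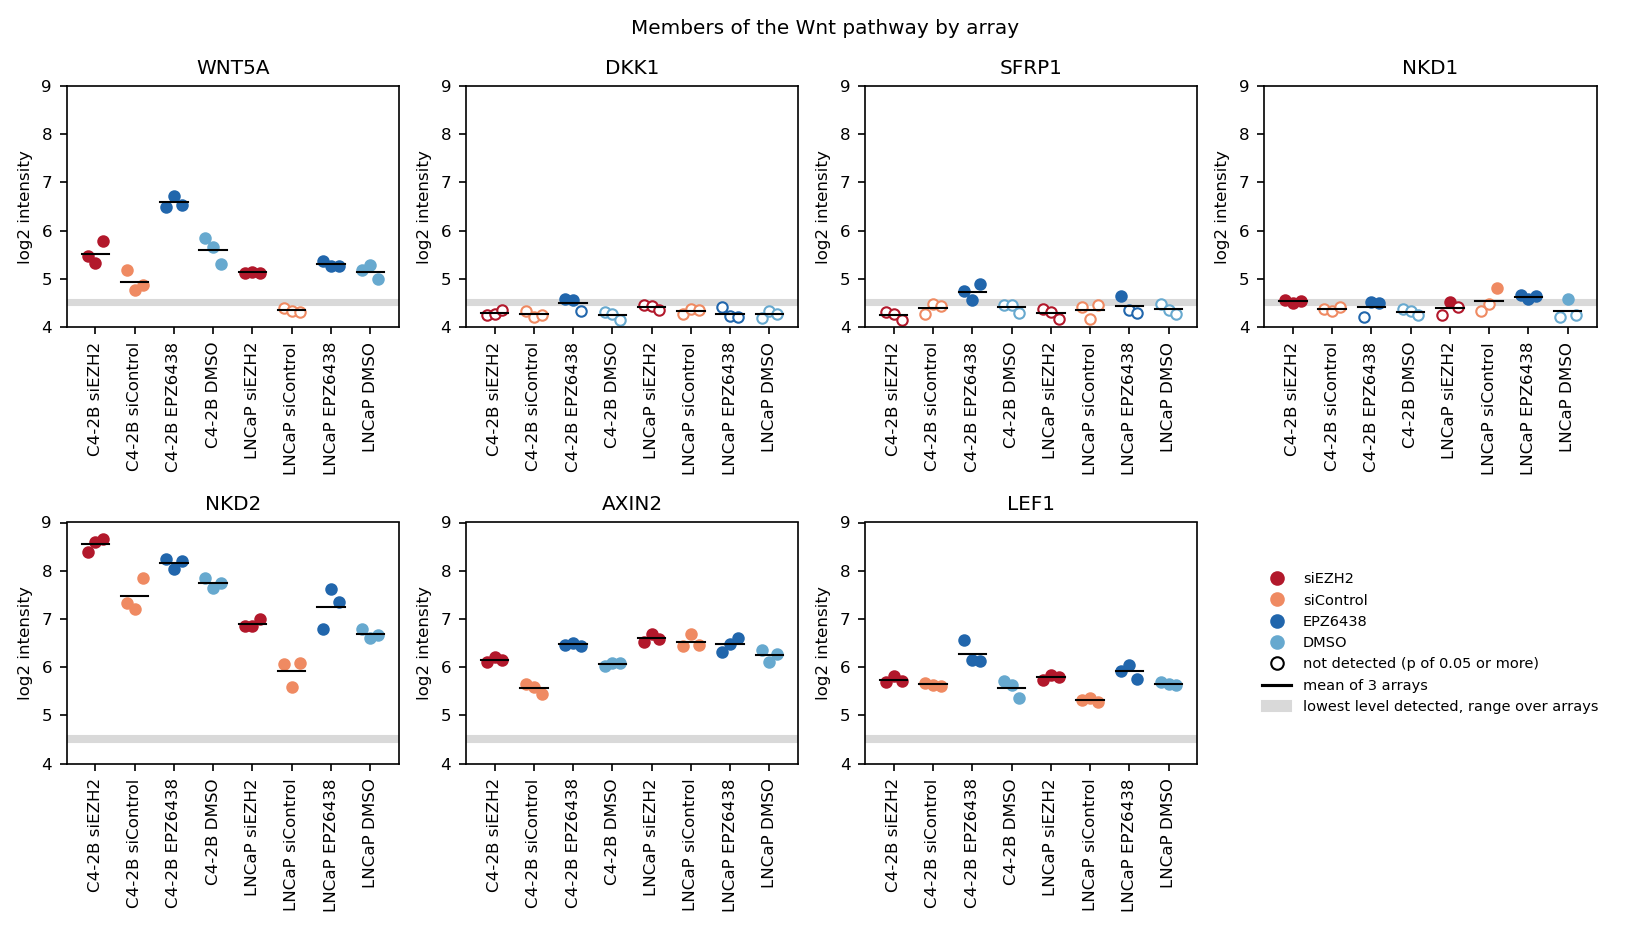
Log2 intensity of each of the 7 genes on each array after background correction and quantile normalisation, by group, with the mean of 3 arrays as a line, open circles where the probe was not detected and a grey band for the range over arrays of the lowest level detected. NKD2 lies well above the band in every group, WNT5A is highest in C4-2B with EPZ6438 (6.50 to 6.73) and below the band in LNCaP siControl (4.31 to 4.40), and DKK1, SFRP1 and NKD1 stay near the band throughout.

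WNT5A, a ligand that mostly signals without beta-catenin and is made in prostate cancer, rose in 3 of the 4 treatment comparisons. The gene lies at chr3:55465715-55505263 on the minus strand of GRCh38.p14. RefSeq places its starts at more than 1 position, and 2 promoter windows of 300 bases, from 250 bases before a start to 50 after it, are shown because WNT5A was called with both ways of acting on EZH2. The first, chr3:55481349-55481648, holds 22 CpG dinucleotides and the second, chr3:55487257-55487556, holds 21, against a median of 14 over 35116 RefSeq promoters of the same length. Of those promoters, 62.3% hold fewer CpG than the first window and 60.5% fewer than the second. Capitals mark the CpG dinucleotides, and both are written 5′ to 3′ on the minus strand.
WNT5A, chr3:55481349-55481648: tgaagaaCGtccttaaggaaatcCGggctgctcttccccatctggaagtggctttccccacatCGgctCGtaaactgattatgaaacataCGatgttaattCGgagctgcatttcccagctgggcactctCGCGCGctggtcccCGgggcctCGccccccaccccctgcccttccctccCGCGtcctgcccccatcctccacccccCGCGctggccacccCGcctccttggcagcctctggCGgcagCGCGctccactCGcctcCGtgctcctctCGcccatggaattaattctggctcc
WNT5A, chr3:55487257-55487556: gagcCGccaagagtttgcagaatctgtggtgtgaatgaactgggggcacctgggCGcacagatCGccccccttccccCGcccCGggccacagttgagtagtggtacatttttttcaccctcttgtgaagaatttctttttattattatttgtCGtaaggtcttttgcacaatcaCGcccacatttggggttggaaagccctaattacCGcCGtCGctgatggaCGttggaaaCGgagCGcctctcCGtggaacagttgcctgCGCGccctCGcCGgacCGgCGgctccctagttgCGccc

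The LNCaP siEZH2 arrays read 5.13, 5.15 and 5.13 for WNT5A, against 4.40, 4.34 and 4.31 on the LNCaP siControl arrays. None of the siControl arrays detected the probe and all siEZH2 arrays did, with no overlap. The change was 0.78 ± 0.13 (adjusted p = 5.41e-05), and set against the lowest level detected in siControl, WNT5A was at least 1.53-fold higher with siEZH2. In C4-2B, siEZH2 gave 5.47, 5.33 and 5.78, against 5.18, 4.78 and 4.88 with siControl. The groups did not overlap there either, and WNT5A rose by 0.58 ± 0.13 (adjusted p = 0.00234), a 1.49-fold difference. The summed linear level of the 5 tested fibroblast and smooth muscle genes was 290 to 323 in LNCaP siEZH2, against 466 to 494 in siControl, and 179 to 213 in C4-2B siEZH2, against 140 to 147 in siControl. Of these 5 genes, 1 was called lower in LNCaP (median change 0.04) and 2 were called higher in C4-2B (median change 0.31). The luminal markers moved as well: with siEZH2 8 of 10 were called lower in LNCaP, where their sum was 8355 to 8645, against 15769 to 17383 in siControl, and in C4-2B 3 were called lower and 1 higher, with sums of 4039 to 5153, against 4966 to 5757. The part of these markers in the result was not tested. In bulk RNA, fewer cells of a type and less RNA per cell cannot be told apart.

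With EPZ6438 the lines differed for WNT5A. C4-2B arrays read 6.50, 6.73 and 6.53 with the inhibitor, against 5.85, 5.66 and 5.32 with DMSO, a rise of 0.98 ± 0.13 (adjusted p = 6.51e-06) or 1.97-fold. The lowest EPZ6438 array stood above the highest DMSO array, and the rise was 0.87 ± 0.14 (adjusted p = 2.02e-04) without the pair of dim arrays. In LNCaP the values were 5.38, 5.27 and 5.27 with EPZ6438, against 5.18, 5.28 and 5.00 with DMSO, and these overlapped. The LNCaP difference was 0.16 ± 0.13 (adjusted p = 0.544, 95% interval −0.11 to 0.42). Fibroblast and smooth muscle marker sums were 130 to 133 with EPZ6438, against 123 to 131 with DMSO, in C4-2B, and 574 to 698, against 319 to 385, in LNCaP. Of the 5 genes summed, 0 were called in C4-2B (median change 0.01) and 1 was called higher in LNCaP (median change 0.19). With EPZ6438 5 of the 10 luminal markers were called higher and 1 lower in C4-2B, and 4 higher and 1 lower in LNCaP. Their summed level was 16789 to 17028 with EPZ6438, against 10254 to 11817 with DMSO, in C4-2B, and 15997 to 21753, against 13608 to 14214, in LNCaP. The part of these markers was not tested.

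The EPZ6438 effect on WNT5A was larger in C4-2B than in LNCaP by 0.82 ± 0.18 (adjusted p = 0.00613), in a comparison in which 6.67% of all genes were called and 1 of the 6 tested members was. It was 0.72 ± 0.18 (adjusted p = 0.0195) without the pair of dim arrays, and was no longer called with arrays centred on the median of all probes (0.75, adjusted p = 0.818) or of the detected probes (0.67, adjusted p = 0.0611), of a range of 0.0013 to 0.818. Within LNCaP, the siEZH2 effect exceeded the EPZ6438 effect by 0.63 ± 0.18 (adjusted p = 0.0171), again for WNT5A alone of the 6, where 18.5% of all genes were called. No LNCaP siControl array detected WNT5A, so the size of this difference is measured against a group not above background. That call was lost without background correction (adjusted p = 0.0947), with a background offset of 50 (0.0855), and with arrays centred on the median of all probes (0.242) or of the detected probes (0.178) in place of quantile normalisation, of a range of 0.00318 to 0.242 over the alternatives. In C4-2B, siEZH2 minus EPZ6438 was −0.40 ± 0.18 (adjusted p = 0.165, 95% interval −0.77 to −0.02). It was called without background correction (adjusted p = 0.0193) and with an offset of 50 (0.0315), of a range of 0.0193 to 0.903, and was −0.29 ± 0.18 (adjusted p = 0.341) without the pair of dim arrays. The siEZH2 effect in C4-2B minus that in LNCaP was −0.20 ± 0.18 (adjusted p = 0.604, −0.58 to 0.17). WNT5A was lower in the siControl than in the DMSO cultures, with means of 4.35 in siControl and 5.15 in DMSO for LNCaP, and 4.95 in siControl and 5.61 in DMSO for C4-2B. The labels do not say whether those controls came from 1 experiment, and they were not tested against each other.

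Over the 8 groups, mean WNT5A ran in descending order from 6.59 in C4-2B EPZ6438 to 5.61 in C4-2B DMSO, 5.53 in C4-2B siEZH2, 5.31 in LNCaP EPZ6438, 5.15 in LNCaP DMSO, 5.14 in LNCaP siEZH2, 4.95 in C4-2B siControl and 4.35 in LNCaP siControl. The first and the last of these stood clear of their neighbours, and the 6 between them each overlapped the next. C4-2B exceeded LNCaP by 0.46 ± 0.13 in DMSO (adjusted p = 0.00597) and by 0.59 ± 0.13 in siControl (adjusted p = 4.66e-04). In siControl WNT5A was at least 1.34-fold higher in C4-2B, and that call was lost with arrays centred on the median of all probes (adjusted p = 0.0874, of a range of 1.14e-04 to 0.0874). Without the pair of dim arrays the DMSO difference was 0.60 ± 0.13 (adjusted p = 7.86e-04). Without C4-2B DMSO replicate 1 it was 0.34 and no longer called (adjusted p = 0.0558), and with that centring it was 0.39 (adjusted p = 0.285, of a range of 7.86e-04 to 0.285).

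DKK1, which binds the coreceptors LRP5 and LRP6 and blocks canonical signalling, lies at chr10:52314281-52317657. Its brighter probe was detected only on C4-2B EPZ6438 replicates 1 and 2. That probe read 4.59, 4.56 and 4.34 in C4-2B EPZ6438, against 4.32, 4.27 and 4.15 in DMSO, with the lowest level detected lying between 4.46 and 4.57 over all arrays. On the other 21 arrays it was between 4.15 and 4.46. The second DKK1 probe was detected nowhere. When the filter on dim probes was dropped, the brighter probe differed by 0.25 ± 0.07 in C4-2B with EPZ6438 (adjusted p = 0.0315) and passed the test in none of the other 9 comparisons. One of the arrays that detected it is dim, and without the dim pair the difference was 0.16 ± 0.09 and not called (adjusted p = 0.384). No fold is given, because the mean of the EPZ6438 arrays lies below the level detected in DMSO.

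SFRP1 is a secreted Frizzled-related protein that binds Wnt ligands. It read 4.75, 4.56 and 4.89 in C4-2B with EPZ6438, all detected, against 4.46, 4.47 and 4.30 with DMSO, none detected. These groups did not overlap, and the difference of 0.33 ± 0.11 missed the threshold (adjusted p = 0.0508, 95% interval 0.09 to 0.56). It was called in 3 of 12 alternative settings, over which the adjusted p ran between 0.0453 and 0.734, and without EPZ6438 replicate 2 (0.41, adjusted p = 0.0276). Without the pair of dim arrays the difference was 0.26 ± 0.14 (adjusted p = 0.271). With siEZH2 no array of either line detected it, and the differences were −0.15 ± 0.11 in C4-2B and −0.06 ± 0.11 in LNCaP. In LNCaP the difference with EPZ6438 was 0.06 ± 0.11, with 1 array of 3 detected. The siEZH2 effect minus the EPZ6438 effect in C4-2B was −0.48 ± 0.16 (adjusted p = 0.0465). No array of the other 3 groups in that difference detected SFRP1, so its size is set against background, and SFRP1 entered the fit through the EPZ6438 group. The call was lost in 8 of 12 alternative settings and without each of 10 of the 12 arrays (all but EPZ6438 replicate 2 and siControl replicate 1), where it lay between −0.51 and −0.40. Without the pair of dim arrays it was −0.41 (adjusted p = 0.139).

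NKD2 and NKD1 are the Naked cuticle proteins, which bind Dishevelled and dampen Wnt signalling. NKD2 rose with siEZH2 in both lines. It lies at chr5:1008802-1038943 on the plus strand. Its promoter window, chr5:1008552-1008851, is shown because NKD2 was called in 3 of the 4 treatment comparisons and because it is the most CpG-dense window of the members with a RefSeq entry. It holds 35 CpG dinucleotides, marked in capitals, and 77% G or C, and 85.9% of the 35116 promoters hold fewer CpG.
NKD2, chr5:1008552-1008851: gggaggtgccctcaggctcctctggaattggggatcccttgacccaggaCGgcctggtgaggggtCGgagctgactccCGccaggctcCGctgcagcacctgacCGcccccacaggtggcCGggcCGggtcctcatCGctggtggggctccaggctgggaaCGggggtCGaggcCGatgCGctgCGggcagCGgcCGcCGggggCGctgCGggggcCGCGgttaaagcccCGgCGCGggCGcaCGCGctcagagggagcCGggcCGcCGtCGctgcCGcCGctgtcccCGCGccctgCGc

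NKD2 read 8.39, 8.60 and 8.65 in C4-2B with siEZH2, against 7.34, 7.20 and 7.86 with siControl. In LNCaP it read 6.85, 6.85 and 6.99 with siEZH2, against 6.07, 5.59 and 6.08 with siControl. No siEZH2 array fell within the range of its controls in either line. The rise was 1.08 ± 0.17 in C4-2B (2.12-fold, adjusted p = 8.56e-05) and 0.98 ± 0.17 in LNCaP (1.98-fold, adjusted p = 1.10e-04). The effect in C4-2B minus that in LNCaP was 0.10 ± 0.24 (adjusted p = 0.881), with a 95% interval of −0.40 to 0.60.

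With EPZ6438, NKD2 read 8.25, 8.04 and 8.20 in C4-2B, against 7.84, 7.65 and 7.74 with DMSO. The arrays did not overlap, but the difference of 0.42 ± 0.17 was not called (adjusted p = 0.105, 95% interval 0.07 to 0.78). It was called in 1 of 12 alternative settings, the fit to the groups compared alone (adjusted p = 0.038, of a range of 0.038 to 0.662), and was 0.38 ± 0.22 (adjusted p = 0.337) without the pair of dim arrays. In LNCaP it read 6.79, 7.63 and 7.35 with EPZ6438, against 6.79, 6.61 and 6.67 with DMSO, so the lowest inhibitor array stood level with the highest control. The LNCaP rise of 0.57 ± 0.17 was called at an adjusted p of 0.0482. It was not called in 8 of 11 alternative settings, with an adjusted p of 0.0438 to 0.818 over all 11. Nor was it called without each of 5 of the 6 arrays, all but EPZ6438 replicate 1. The change was 0.38 without EPZ6438 replicate 2. The siEZH2 effect minus the EPZ6438 effect was 0.66 ± 0.24 in C4-2B (adjusted p = 0.0749) and 0.42 ± 0.24 in LNCaP (adjusted p = 0.259), neither called. The C4-2B difference was called without siControl replicate 3 (0.85, adjusted p = 0.0164) and without background correction (0.51, adjusted p = 0.0398, of a range of 0.0398 to 0.203). Without the pair of dim arrays it was 0.70 ± 0.28 (adjusted p = 0.105).

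NKD2 also separated the lines. C4-2B exceeded LNCaP by 1.05 ± 0.17 in DMSO (2.07-fold, adjusted p = 2.42e-05; 1.05 ± 0.20 without the dim DMSO array and its pair, adjusted p = 1.93e-04) and by 1.55 ± 0.17 in siControl (2.94-fold, adjusted p = 5.03e-08). In the line comparison 2 of 6 tested members were called in DMSO (NKD2 and WNT5A) and 4 of 6 in siControl, where 39.8% and 46.9% of all genes were called. The group means of NKD2, from high to low, were 8.55 in C4-2B siEZH2, 8.17 in C4-2B EPZ6438, 7.74 in C4-2B DMSO, 7.47 in C4-2B siControl, 7.26 in LNCaP EPZ6438, 6.90 in LNCaP siEZH2, 6.69 in LNCaP DMSO and 5.91 in LNCaP siControl. The C4-2B DMSO and siControl arrays overlapped, as did C4-2B siControl with LNCaP EPZ6438 and LNCaP EPZ6438 with LNCaP siEZH2, and the other neighbours did not.

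NKD1, at chr16:50548396-50649249, stayed close to the limit of detection. Over all arrays it lay between 4.21 and 4.81. All 3 arrays detected it in C4-2B siEZH2 (4.56, 4.50 and 4.54, against 4.38, 4.34 and 4.42 in siControl) and in LNCaP EPZ6438 (4.66, 4.59 and 4.65, against 4.21, 4.58 and 4.25 in DMSO). Neither difference was called, at 0.15 ± 0.12 (adjusted p = 0.407) and 0.29 ± 0.12 (adjusted p = 0.136). With siEZH2 in LNCaP it differed by −0.15 ± 0.12, and with EPZ6438 in C4-2B by 0.09 ± 0.12. The siEZH2 effect minus the EPZ6438 effect in LNCaP was −0.44 ± 0.16 (adjusted p = 0.0646). It was called without LNCaP DMSO replicate 2 (−0.56), without LNCaP siControl replicate 1 (−0.54) and without LNCaP siEZH2 replicate 2 (−0.50).

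AXIN2 is a scaffold of the complex that degrades beta-catenin and is itself a widely used target gene of beta-catenin and TCF/LEF. It lies at chr17:65528563-65561648 and rose with both treatments in C4-2B. It read 6.10, 6.21 and 6.16 in C4-2B with siEZH2, against 5.66, 5.59 and 5.45 with siControl, and rose by 0.59 ± 0.10 (1.51-fold, adjusted p = 1.07e-04). With EPZ6438 it read 6.46, 6.51 and 6.45, against 6.02, 6.09 and 6.08 with DMSO, a rise of 0.41 ± 0.10 (1.33-fold, adjusted p = 0.00405). In both cases every treated array was above every control array. The EPZ6438 call was kept without the pair of dim arrays (0.42, adjusted p = 0.0233), and was lost with arrays centred on the median of all probes (adjusted p = 0.599, of a range of 0.00223 to 0.599).

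In LNCaP, AXIN2 read 6.53, 6.68 and 6.58 with siEZH2, against 6.44, 6.68 and 6.46 with siControl, and 6.32, 6.49 and 6.61 with EPZ6438, against 6.35, 6.11 and 6.28 with DMSO. Both pairs overlapped. The differences of 0.07 ± 0.10 (adjusted p = 0.65) and 0.22 ± 0.10 (adjusted p = 0.168) were not called. The siEZH2 effect was larger in C4-2B than in LNCaP by 0.52 ± 0.14 (adjusted p = 0.0246), the single called member in a comparison in which 5.78% of all genes were called. This was lost without each of LNCaP siControl replicate 2 (0.44), LNCaP siEZH2 replicates 1 (0.48) and 3 (0.51), C4-2B siControl replicate 3 (0.46) and C4-2B siEZH2 replicate 2 (0.49), and under both ways of centring on a median (adjusted p = 0.936 and 0.0523, of a range of 0.015 to 0.936). For EPZ6438 the difference between lines was 0.18 ± 0.14 (adjusted p = 0.522).

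In siControl cultures AXIN2 was lower in C4-2B than in LNCaP, with means of 5.57 in C4-2B and 6.53 in LNCaP and a difference of −0.96 ± 0.10 (adjusted p = 9.13e-09). In DMSO cultures the means were 6.06 in C4-2B and 6.25 in LNCaP, and the difference of −0.19 ± 0.10 was not called (adjusted p = 0.133). The C4-2B siControl group was the lowest of the 8, and stood clear of the next. At the top, LNCaP siEZH2 (6.60), LNCaP siControl (6.53), LNCaP EPZ6438 (6.47) and C4-2B EPZ6438 (6.47) overlapped one another in turn. Below them came LNCaP DMSO (6.25), C4-2B siEZH2 (6.16) and C4-2B DMSO (6.06), of which LNCaP DMSO and C4-2B siEZH2 overlapped.

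LEF1 is the nuclear partner through which beta-catenin reaches its targets, and the gene lies at chr4:108047548-108168932. It was called with siEZH2 in LNCaP and with EPZ6438 in C4-2B. In LNCaP the probe used read 5.74, 5.83 and 5.80 with siEZH2, against 5.33, 5.37 and 5.27 with siControl, and rose by 0.46 ± 0.11 (1.38-fold, adjusted p = 0.0024). In C4-2B it read 6.56, 6.14 and 6.13 with EPZ6438, against 5.72, 5.64 and 5.36 with DMSO, and rose by 0.70 ± 0.11 (1.63-fold, adjusted p = 5.37e-05). The highest and the lowest of those 6 arrays were the dim ones, and without them the rise was 0.45 ± 0.10 (adjusted p = 0.0038). The call was lost when arrays were centred on the median of all probes (0.67, adjusted p = 0.0678, of a range of 3.83e-06 to 0.0678).

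The other pairs of LEF1 differed less. C4-2B read 5.69, 5.81 and 5.71 with siEZH2, against 5.67, 5.64 and 5.62 with siControl, a difference of 0.09 ± 0.11 (adjusted p = 0.626). LNCaP read 5.93, 6.05 and 5.76 with EPZ6438, against 5.69, 5.65 and 5.64 with DMSO, a difference of 0.25 ± 0.11 (adjusted p = 0.185). Neither pair of groups overlapped, and neither was called. In C4-2B the siEZH2 effect was below the EPZ6438 effect, with a difference of −0.61 ± 0.15 (adjusted p = 0.00872). In that comparison 13.9% of all genes were called, and of the members LEF1 was called and SFRP1 only against groups that did not detect it. Without the pair of dim arrays that difference was −0.36 ± 0.13 and not called (adjusted p = 0.0707), nor was it with arrays centred on the median of all probes (−0.28, adjusted p = 0.694, of a range of 6.1e-04 to 0.694). LEF1 was 0.32 ± 0.11 higher in C4-2B than in LNCaP in siControl cultures (adjusted p = 0.0183) and differed by −0.09 ± 0.11 in DMSO cultures (adjusted p = 0.569). The siControl difference was not called without LNCaP siControl replicate 3 (0.29) or C4-2B siControl replicate 1 (0.31), without background correction (adjusted p = 0.0584) or with arrays centred on the median of all probes (0.337), of a range of 2.12e-04 to 0.337.

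A second LEF1 probe was also detected on all 24 arrays, and was fitted on its own with p-values adjusted over 26278 probes. It differed by 0.58 ± 0.12 with siEZH2 in LNCaP (adjusted p = 0.001), by 0.72 ± 0.12 with EPZ6438 in C4-2B (adjusted p = 2.01e-04, and 7.92e-04 without the pair of dim arrays) and by −0.04 ± 0.12 with siEZH2 in C4-2B (adjusted p = 0.906). The probes parted in LNCaP with EPZ6438, where the second one read 5.96, 5.98 and 5.80, against 5.46, 5.38 and 5.62 with DMSO, and was called (0.43 ± 0.12, adjusted p = 0.0476), as was the mean of both probes (0.34 ± 0.09, adjusted p = 0.0254). The siEZH2 effect minus the EPZ6438 effect in C4-2B was −0.76 ± 0.17 for the second probe (adjusted p = 0.00488) and was still called without the pair of dim arrays (−0.81 ± 0.18, adjusted p = 0.00528), unlike that of the probe used. They also parted in the difference of the siEZH2 effect between lines, which was −0.62 ± 0.17 for the second probe (adjusted p = 0.0439) and −0.37 ± 0.15 for the probe used (adjusted p = 0.173). By the second probe C4-2B exceeded LNCaP by 0.58 ± 0.12 in siControl cultures (adjusted p = 4.16e-04) and differed by 0.03 ± 0.12 in DMSO cultures (adjusted p = 0.907). Mean LEF1 by the probe used was highest in C4-2B EPZ6438 (6.28), clear of LNCaP EPZ6438 (5.91), and the remaining groups, down to LNCaP siControl (5.32), each overlapped the next.

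**Figure D2:**
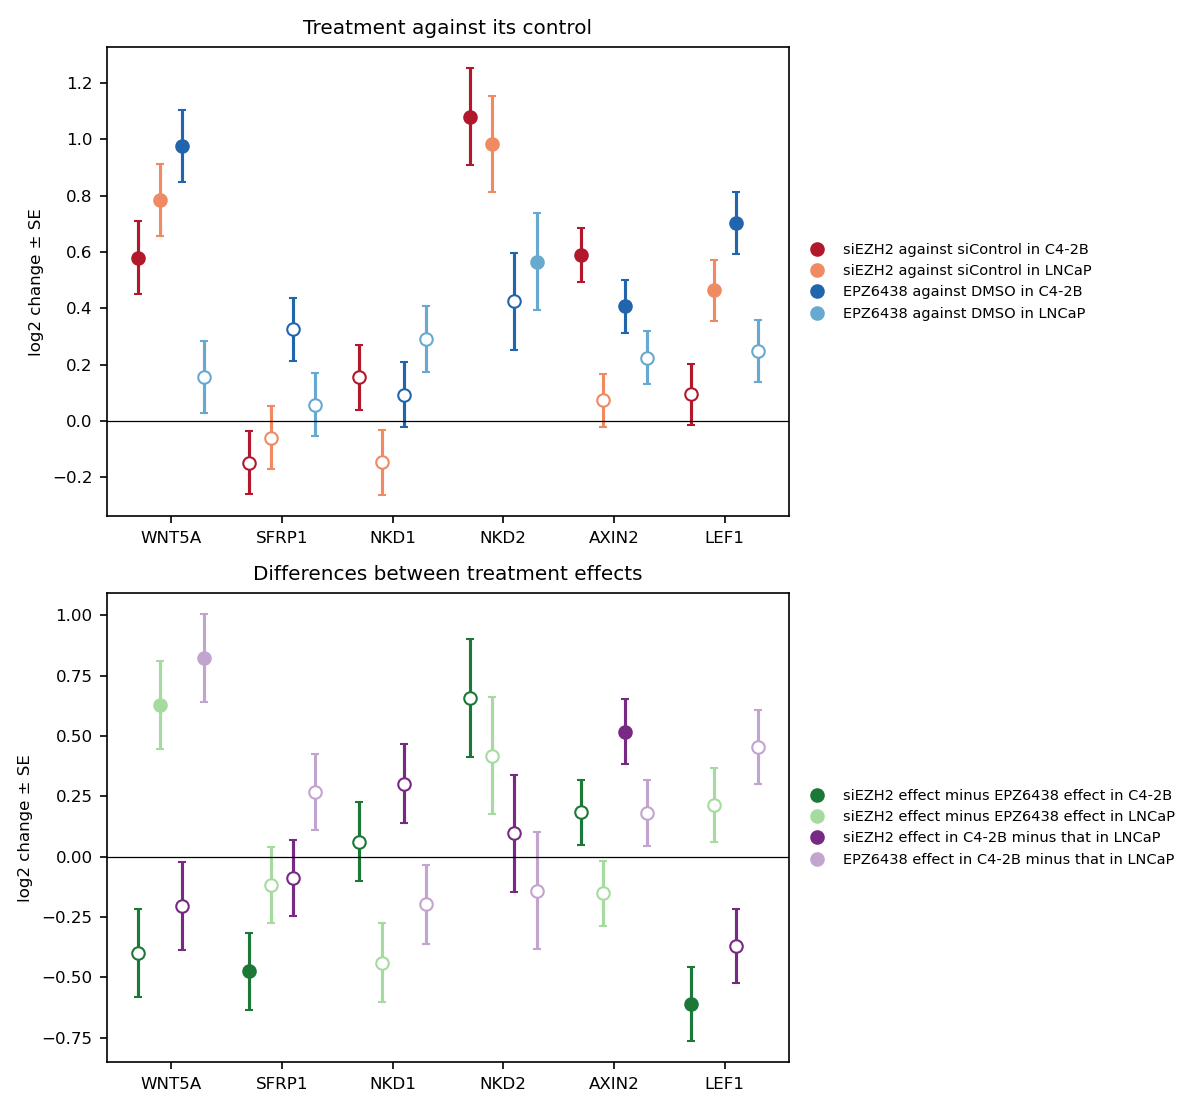
Log2 change ± SE of the 6 tested genes, treatment against its control in the upper plot and differences between treatment effects in the lower plot, with filled points where the adjusted p was under 0.05. The largest filled points are NKD2 with siEZH2 (1.08 in C4-2B, 0.98 in LNCaP) and WNT5A with EPZ6438 in C4-2B (0.98), and no filled point in the upper plot lies below 0.

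The promoter windows were also read for the TCF/LEF core, CTTTGAT on either strand (ATCAAAG). It was not in the 5 windows available for WNT5A, DKK1, NKD2 and LEF1, and 2.62% of the 35116 promoters of this length hold it. The CpG count was 20 for DKK1 and 9 for LEF1. No promoter entry was used for AXIN2, NKD1 and SFRP1.

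The genes whose arrays ran most nearly with each member are given as a description, since the 24 arrays share 2 lines and 4 treatments. For NKD2 the highest Pearson correlations were with SUSD2 (0.958), PITPNC1 (0.945) and RARA (0.938). For WNT5A they were with TIMP2 (0.945), an inhibitor of metalloproteinases, LAMB1 (0.936), a laminin chain, and FSCN1 (0.929), an actin-bundling protein. AXIN2 ran with COL4A5 (0.923), TP53INP1 (0.914) and HECTD4 (0.909). LEF1 ran with E2F3 (0.817), with WNT5A itself (0.801) and with NBL1 (0.79). For SFRP1 and NKD1, near the limit of detection, the highest values were lower, 0.791 with C3orf70 and 0.721 with PGAP1.

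Other genes of the pathway were taken from 7 lists, from ligands to reported beta-catenin targets, which hold 117 genes, 82 of them tested and 76 of those not among the members. With siEZH2, 12 of the 76 were called higher and 7 lower in LNCaP (25% in all, against 26.7% of all genes), with a median change of 0.05. In C4-2B 13 were called higher and 2 lower (19.7%, against 18.7%), with a median of 0.08. With EPZ6438, 7 were called higher and 1 lower in LNCaP (10.5%, against 6.68%), with a median of 0.10, and 13 and 2 in C4-2B (19.7%, against 15.2%), with a median of 0.08. The siEZH2 shares are near those of all genes, whose median change lay between 0.0040 and 0.03 in these comparisons.

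Among 8 tested ligands, WNT5A alone was called with siEZH2 in either line, where 26.7% of all genes were called in LNCaP and 18.7% in C4-2B. With EPZ6438 in LNCaP 0 of 8 were called, against 6.68% of all genes. With EPZ6438 in C4-2B, where 15.2% of all genes were called, WNT7B (0.90 ± 0.15) and WNT10A (0.35 ± 0.09) rose beside WNT5A. Of 5 tested genes of Wnt secretion and potentiation, 2 were called with siEZH2 in LNCaP and 1 with EPZ6438 in C4-2B, all higher. The other treatment comparisons called 0 of the 5. WLS, which carries Wnt proteins to the cell surface, rose by 1.37 ± 0.13 with EPZ6438 in C4-2B (adjusted p = 3.25e-08) and by 0.75 ± 0.13 with siEZH2 in LNCaP. In C4-2B its mean was 6.17 with EPZ6438, against 4.80 with DMSO, while it was 8.69 with siEZH2, against 8.42 with siControl. NDP (norrin), a ligand of FZD4, rose by 0.85 ± 0.13 with siEZH2 in LNCaP.

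Of 15 tested receptors and coreceptors, 5 were called higher and 2 lower with siEZH2 in LNCaP, where 26.7% of all genes were called. In C4-2B 4 were called higher and 1 lower, where 18.7% of all genes were called. In LNCaP those called higher included ROR1 (1.21 ± 0.18) and RYK (0.80 ± 0.10), receptors for WNT5A, and the coreceptor LRP5 (0.81 ± 0.13). In C4-2B they included FZD2 (0.70 ± 0.11), the pseudokinase PTK7 (0.69 ± 0.13) and LRP5 (0.64 ± 0.13). EPZ6438 called 1 receptor in each line, where 6.68% of all genes were called in LNCaP and 15.2% in C4-2B. These receptors were FZD4 in LNCaP (0.37 ± 0.11) and FZD3 in C4-2B (0.48 ± 0.15). ROR1 differed by 0.06 with EPZ6438 in C4-2B, the comparison in which WNT5A rose the most, and was not called there.

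Of 11 tested secreted and membrane inhibitors, 1 or 2 were called in each treatment comparison, all higher. The shares of all genes called higher were 14.2% and 10.1% with siEZH2 in LNCaP and C4-2B. With EPZ6438 they were 4% in LNCaP and 8.14% in C4-2B. APCDD1, which binds Wnt and LRP proteins at the membrane, rose in LNCaP with siEZH2 (0.45 ± 0.13) and with EPZ6438 (0.46 ± 0.13). In C4-2B the called genes were FRZB (0.46 ± 0.14) and ZNRF3 (0.32 ± 0.09) with siEZH2 and RNF43 (0.39 ± 0.13, adjusted p = 0.046) with EPZ6438. Under 4 other scalings the calls of RNF43 (adjusted p between 0.0721 and 0.256) and of APCDD1 with EPZ6438 in LNCaP (0.0522 to 0.4) were lost in all 4, and that of FRZB in 3 (0.022 to 0.399). FRZB is a relative of SFRP1, and ZNRF3 and RNF43 remove Frizzled receptors from the surface.

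Of 23 tested intracellular genes, 2 rose and 3 fell with siEZH2 in LNCaP, where 26.7% of all genes were called. CTNNB1, beta-catenin itself, fell by 0.99 ± 0.16 (adjusted p = 4.26e-05), with a mean of 8.06 in siEZH2 and 9.04 in siControl, and CSNK1A1, a kinase that primes beta-catenin for degradation, fell by 0.67 ± 0.13. CTNNB1 differed by 0.25 with siEZH2 in C4-2B and was not called. In C4-2B 4 of the 23 were called higher with siEZH2, against 18.7% of all genes called. With EPZ6438 3 were called higher in LNCaP, against 6.68% of all genes called. In C4-2B EPZ6438 called 3 higher and 1 lower, against 15.2% of all genes. CXXC5, a Dishevelled-binding inhibitor, rose with siEZH2 in C4-2B (0.71 ± 0.12) and with EPZ6438 in both lines (0.74 ± 0.12 in C4-2B and 0.51 ± 0.12 in LNCaP). VANGL2, of the planar polarity branch, rose with EPZ6438 in C4-2B (0.57 ± 0.12) and LNCaP (0.50 ± 0.12).

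Of 12 tested nuclear factors and cofactors, 3 were called higher and 1 lower with siEZH2 in LNCaP, against 26.7% of all genes called. In C4-2B 3 were called higher with siEZH2, against 18.7% of all genes called. With EPZ6438 1 was called higher in LNCaP and 3 in C4-2B, against 6.68% and 15.2% of all genes called. The corepressor TLE1 rose with siEZH2 in LNCaP (1.09 ± 0.11) and C4-2B (0.55 ± 0.11) and with EPZ6438 in C4-2B (0.60 ± 0.11). TLE5 fell with siEZH2 in LNCaP by 0.67 ± 0.14. The coactivator BCL9 rose in C4-2B with siEZH2 (0.59 ± 0.10) and EPZ6438 (0.35 ± 0.10), TCF7L2 with siEZH2 in C4-2B (0.41 ± 0.11), and the repressor HBP1 with EPZ6438 in LNCaP (0.44 ± 0.11).

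Of 15 tested genes reported as beta-catenin targets, AXIN2 and LEF1 among them, 7 rose and 1 fell with EPZ6438 in C4-2B, and 3 or 4 rose and 1 fell in each of the other treatment comparisons. Of all genes, 15.2% were called and 8.14% were called higher with EPZ6438 in C4-2B. The shares of all genes called higher were 14.2% and 10.1% with siEZH2 in LNCaP and C4-2B, and 4% with EPZ6438 in LNCaP. Among these targets the largest rises in C4-2B with EPZ6438 were those of BAMBI (0.87 ± 0.10), TNFRSF19 (0.84 ± 0.12) and JAG1 (0.83 ± 0.12). In LNCaP with EPZ6438 they were MMP7 (0.75 ± 0.11), APCDD1 and BAMBI (0.46 ± 0.10). CCND1, cyclin D1, rose with siEZH2 in C4-2B (0.48 ± 0.12). The gene that fell with siEZH2 was BIRC5 (survivin), by 1.34 ± 0.10 in C4-2B and 1.05 ± 0.10 in LNCaP, which is known for its role in mitosis. The called genes of these lists named here kept their sign under the 4 other scalings, and those named without being called were not followed there. With arrays centred on the median of all probes, of those that are not members 1 of 7 was still called with EPZ6438 in LNCaP, 3 of 12 with EPZ6438 in C4-2B, 7 of 11 with siEZH2 in LNCaP and 9 of 11 with siEZH2 in C4-2B. The calls of WNT10A with EPZ6438 in C4-2B (adjusted p up to 0.563) and FZD4 with EPZ6438 in LNCaP were lost under 3 of the 4. Without the pair of dim arrays 10 of the 12 with EPZ6438 in C4-2B were called, all but FZD3 (0.47, adjusted p = 0.139) and BCL9 (0.32, adjusted p = 0.094), and WLS rose by 1.15 ± 0.13.

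**Figure D3:**
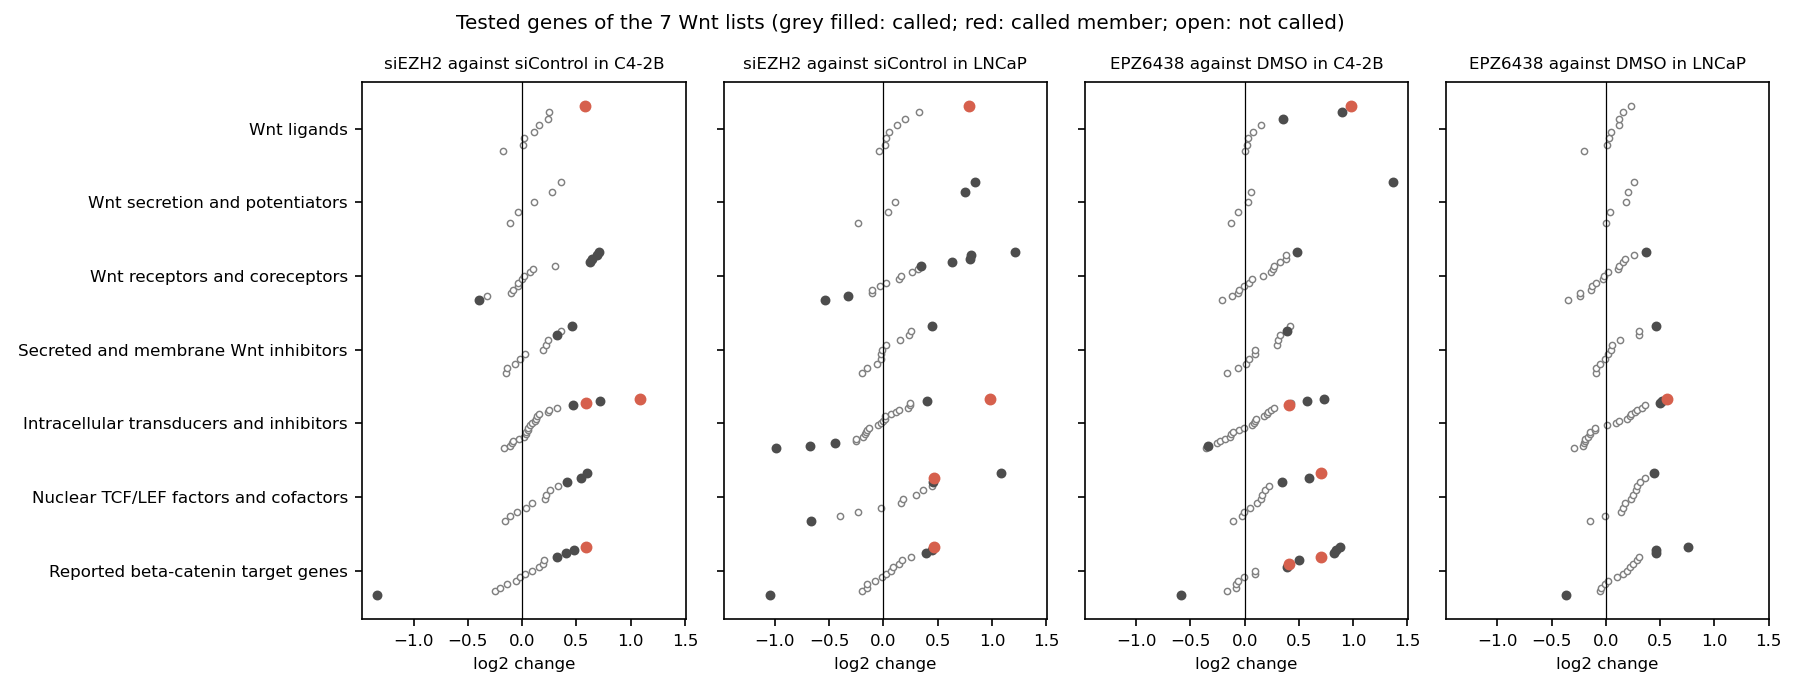
Log2 change of each tested gene of 7 Wnt lists in the 4 treatment comparisons, with called members in red, other called genes in grey and genes not called as open circles, so that a gene on 2 lists is drawn in each. Most filled points lie right of 0, and those left of it include BIRC5 in each comparison and CTNNB1, CSNK1A1 and TLE5 with siEZH2 in LNCaP.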

How the data were processed

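RNA from 24 samples was hybridised to 1 bead array each, in 8 groups of 3 taken from the sample titles. The authors deposited one table of unnormalised bead intensity values, which pairs every value with its detection p-value, and a second table of processed intensities, read from its values as background subtracted and quantile normalised. GenomeStudio is named in the submitters' processing notes, without a version. The unnormalised values are linear and not background subtracted, judging by their range.

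With R 4.3.3, limma 3.58.1 and the data.table package (1.17.8), the deposited intensities were background corrected with neqc (offset of 16, which compresses changes of dim probes; detection p-values standing in for negative controls), quantile normalised and put on the log2 scale. Probes detected (p under 0.05) on at least 3 of 24 arrays were kept (26278 of 47311), and the kept probe with the highest mean stood for its gene (13789 genes). A model with 1 mean per group (lmFit and eBayes, 16 residual and 7.43 prior degrees of freedom) gave 10 comparisons, and p-values were adjusted by Benjamini and Hochberg over all genes. Against a group with no array detected, the fold is a lower bound over the level at detection. The fit was tested on simulated data.

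The members, the lists and the tests were chosen with earlier results of these data known. The genes named are all members, EZH2, up to 3 called genes of largest change per list and treatment, and the 3 genes most correlated with each member detected on all arrays of a group; WLS means in every group, and CTNNB1 and ROR1 where not called, were added after their values were seen. Gene coordinates and promoters are from RefSeq on GRCh38.p14; the position of the probes within transcripts was not analysed here. Same-numbered arrays were not treated as pairs in the main fit. Correlations of same-numbered deviations lay between −0.28 and 0.32, and in 0 of 4 treatment comparisons were all above 0.1. With 3 arrays a group this cannot exclude pairing.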

Additional observations from a re-analysis of the deposited data

Results flagged for a closer look

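In 5 cases the difference between 2 treatment effects passed the test itself, in the limma fit with p-values adjusted over all genes. The EPZ6438 effect on WNT5A was larger in C4-2B than in LNCaP by 0.82 (adjusted p = 0.00613), where 6.67% of all genes were called. That call was lost under both ways of centring on a median. In LNCaP the siEZH2 effect on WNT5A exceeded the EPZ6438 effect by 0.63 (adjusted p = 0.0171), where 18.5% of all genes were called. This call was lost under 4 of 11 alternative settings. The siEZH2 effect on AXIN2 was larger in C4-2B than in LNCaP by 0.52 (adjusted p = 0.0246), where 5.78% of all genes were called. The AXIN2 call was lost under both ways of centring and without each of 5 of the 12 arrays. In C4-2B the siEZH2 effect minus the EPZ6438 effect was −0.61 for LEF1 (adjusted p = 0.00872) and −0.48 for SFRP1 (adjusted p = 0.0465), and both were no longer called without the pair of dim arrays (−0.36 and −0.41), whereas the second LEF1 probe was still called (−0.81). In that comparison 13.9% of all genes were called. The LEF1 call was lost in 2 of 12 alternative settings and the SFRP1 call in 8. SFRP1 was detected on all 3 arrays of C4-2B EPZ6438 and on none of the other 3 groups, so its difference is set against background and it entered the test through that group. WNT5A was likewise not detected in LNCaP siControl, which limits the size given for its LNCaP difference.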

How the results depend on the processing

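The count of members called was recomputed under 11 alternatives, and under 1 more, chosen after seeing the data, that left out both dim C4-2B arrays. With siEZH2 it was 3 in each line under all 11 and without any single array (3 to 3). With EPZ6438 in LNCaP it was 0 without background correction, with an offset of 50, with arrays centred on the median of all probes or of the probes detected on all arrays, from the authors' processed table, without a filter on dim probes, with each probe on its own and in the fit to the groups compared alone, 2 with the mean of the probes of a gene, and 0 to 1 without single arrays. With EPZ6438 in C4-2B it ran from 1 to 4 over the 12 settings, and was 1 with the median of all probes. SFRP1 joined with a stricter filter on dim probes (adjusted p = 0.0453) and with the mean of the probes of a gene (0.0462). NKD2 was called in the fit to the groups compared alone (adjusted p = 0.038). Without single arrays the count was 3 to 4. For siEZH2 minus EPZ6438 in LNCaP it was 0 without background correction, with an offset of 50 and with both kinds of centring, and 1 to 2 without single arrays. The same difference in C4-2B gave 0 with the median of all probes, 1 with the median of detected probes, the processed table, each probe on its own and the groups compared alone, 0 without both dim arrays, and 1 to 2 without single arrays. Over the 12 settings this count ran from 0 to 3. Without background correction NKD2 (0.51, adjusted p = 0.0398) and WNT5A (−0.27, adjusted p = 0.0193) were called there, and SFRP1 was not (adjusted p = 0.117). For siEZH2 in C4-2B minus LNCaP it was 0 with both kinds of centring, 2 with the mean of the probes, and 0 to 1 without single arrays. For EPZ6438 in C4-2B minus LNCaP it was 0 with both kinds of centring and 1 to 1 without single arrays. For C4-2B against LNCaP it was 1 (DMSO) and 2 (siControl) with the median of all probes, and 1 to 2 and 3 to 4 without single arrays. The causes were not tested. Centring on the median of all probes also moved the median change of all genes to 0.18 and 0.21 with siEZH2 in LNCaP and C4-2B, and centring on detected probes to −0.12 and −0.14.

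The number of all genes called fell with the median of all probes to 1689 and 1047 for siEZH2 in LNCaP and C4-2B, 28 and 265 for EPZ6438, 268 and 182 for siEZH2 minus EPZ6438, 79 and 35 for the differences between lines with siEZH2 and EPZ6438, and 2194 and 3311 for C4-2B against LNCaP in DMSO and siControl. The median of detected probes gave 355 and 1257 for EPZ6438 in LNCaP and C4-2B and 466 and 459 for the differences between lines, the fit to the groups compared alone gave 53 and 1364 for EPZ6438 and 481 for its difference between lines, and each probe on its own gave 8260 and 9909 for the lines. Without single arrays EPZ6438 in LNCaP gave 295 to 1781 genes and the siEZH2 difference between lines 439 to 894. No called member value changed sign. Without background correction changes shrank: WNT5A with siEZH2 was 0.24 in LNCaP and 0.20 in C4-2B, still called. With the replicate number as a block the count was 4 with EPZ6438 in C4-2B, where SFRP1 joined (adjusted p = 0.0482), and was as before in the other 9 comparisons. The slide as a block was not run because the file headers name no slide. Signal near background limits what can be said of NKD1, SFRP1 and DKK1.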

Other observations

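The labels do not say whether the DMSO and siControl cultures of a line came from the same experiment. These cultures were not tested against each other. A few genes, picked after their values were seen, read differently in them, and others did not. In C4-2B, mean WLS was 8.42 in siControl and 4.80 in DMSO, whereas in LNCaP it was 7.05 in siControl and 8.11 in DMSO. AXIN2 was 5.57 in C4-2B siControl and 6.06 in C4-2B DMSO, and 6.53 in LNCaP siControl and 6.25 in LNCaP DMSO. NKD2 was 7.47 in C4-2B siControl and 7.74 in C4-2B DMSO, and 5.91 in LNCaP siControl and 6.69 in LNCaP DMSO. LEF1 was 5.64 in C4-2B siControl and 5.58 in C4-2B DMSO. The summed level of the 10 luminal markers was 4966 to 5757 in C4-2B siControl and 10254 to 11817 in C4-2B DMSO, and 15769 to 17383 in LNCaP siControl and 13608 to 14214 in LNCaP DMSO.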
